A study of Mus musculus with 6 samples.

Results

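The genes described here are 7 markers of the adipocyte, chosen by name: Adipoq, Plin1, Fabp4, Cfd, Cidec, Lep and Retn. All 7 were found among the 24411 gene symbols of the deposited table, and all 7 passed the filter on low counts that left 12892 genes for testing. RNA was sequenced from whole EDL (extensor digitorum longus, a muscle of fast-twitch fibres in the hindlimb) of 3 mAktDKO and 3 control animals, each 50 weeks old. Both groups carried floxed alleles of Akt1 and Akt2 on a C57BL/6J background. The mAktDKO mice also carried Cre recombinase knocked in at the Mlc1f locus, a myosin light chain gene active mainly in fast-twitch fibres, and no Cre is labelled in the control mice. The deletion was thus directed at fast fibres and not at adipocytes. The study's methods state male mice unless otherwise indicated. The mice are named by the numbers of the table, mAktDKO mice 1 to 3 and control mice 2 to 4.

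Adipocytes store triglyceride in a single large lipid droplet and secrete hormones and other proteins. In skeletal muscle they lie between the fibres and around the vessels and fascia, and they arise from fibro-adipogenic progenitors. Their program depends on the transcription factors PPARG and C/EBPA. Of the 7 genes, Adipoq (adiponectin), Lep (leptin), Retn (resistin) and Cfd (adipsin, or complement factor D) encode secreted proteins. Plin1 encodes perilipin-1, the coat protein that controls access of lipases to the droplet, and Cidec encodes the droplet protein also called FSP27, which promotes droplet growth. Fabp4 encodes a fatty acid carrier that adipocytes share with capillary endothelial cells and macrophages.

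The 7 genes lie on 6 chromosomes. Cidec and Lep share a chromosome but lie far apart on it. In the mm10 annotation of GENCODE they span chr16:23146536-23158028 (Adipoq), chr7:79720218-79732903 (Plin1), chr3:10204088-10208576 (Fabp4), chr10:79890853-79892655 (Cfd), chr6:113424634-113435760 (Cidec), chr6:29060220-29073877 (Lep) and chr8:3655770-3660110 (Retn). The RefSeq promoter table (GRCm38.p6) held 6 of the 7 genes, and the 250 bases before each start were searched on both strands for letters that transcription factors of this program and general promoter elements are known by. The letters TTGCNNAA, which C/EBP factors bind, were present before the starts of 3 genes, Plin1, Cidec and Lep. For Cidec the window of the second start held these letters and that of the first did not. In all, 9.56% of 32851 promoter windows of the same length held them. The letters CCAAT stood 3 times in the Adipoq window on either strand, and 33.8% of all windows held them. AGGTCA, a half-site of nuclear receptors, was found in none of the 6 and in 14% of all windows. TATAAA, found in 12.4% of all windows, and CACGTG, in 6.02%, were also not found in the 6, nor was the direct repeat of AGGTCA with a single base between, found in 0.0335%. A match of letters is a description of the sequence and not a measured binding site. The starts used here are those of RefSeq and can differ from the GENCODE spans above. The Plin1 window lies partly inside the span of its gene, and the window of the second Cidec start lies wholly inside. The windows of the 4 genes with matches are printed below 5′ to 3′ on the strand of the gene, each ending at the base before the start, with the matched TTGCNNAA or CCAAT letters in capitals:
Lep, chr6:29059971-29060220, + strand: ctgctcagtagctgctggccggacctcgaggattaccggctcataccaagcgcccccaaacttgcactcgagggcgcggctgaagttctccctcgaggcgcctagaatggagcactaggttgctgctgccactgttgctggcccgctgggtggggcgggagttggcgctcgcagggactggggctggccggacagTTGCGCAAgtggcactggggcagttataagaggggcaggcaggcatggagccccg
Plin1, chr7:79732777-79733026, - strand: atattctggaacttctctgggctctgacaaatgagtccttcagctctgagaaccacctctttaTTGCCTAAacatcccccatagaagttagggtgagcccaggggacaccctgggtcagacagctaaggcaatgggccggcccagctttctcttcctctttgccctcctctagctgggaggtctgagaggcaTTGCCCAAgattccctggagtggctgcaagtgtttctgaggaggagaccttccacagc
Cidec (the second of its starts), chr6:113434765-113435014, - strand: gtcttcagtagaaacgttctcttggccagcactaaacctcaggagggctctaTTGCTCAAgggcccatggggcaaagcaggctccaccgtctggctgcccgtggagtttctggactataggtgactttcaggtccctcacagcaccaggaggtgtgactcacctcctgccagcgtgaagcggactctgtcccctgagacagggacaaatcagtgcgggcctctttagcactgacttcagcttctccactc
Adipoq, chr16:23146286-23146535, + strand: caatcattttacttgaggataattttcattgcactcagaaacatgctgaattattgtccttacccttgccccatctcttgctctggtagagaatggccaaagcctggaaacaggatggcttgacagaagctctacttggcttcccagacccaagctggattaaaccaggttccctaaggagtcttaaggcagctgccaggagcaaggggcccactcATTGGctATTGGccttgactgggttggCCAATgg

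Total estimated counts were between 13738803 and 15445514 per mouse, and at this depth 3 counts, taken as the floor, correspond to between 0.180 and 0.227 CPM (counts scaled to a library of 1000000, with TMM-scaled library sizes). Akt2 checked the labels, with 49.1 to 52.7 CPM in the mAktDKO mice against 133 to 172 CPM in the control mice (log2 fold change -1.55, standard error (SE) 0.11, adjusted p = 0.000923 by edgeR). Akt1 was at 51.4 to 58.9 CPM against 65.5 to 66.5 CPM (log2 fold change -0.25, SE 0.080, adjusted p = 0.115 by edgeR). Markers of fast fibres were abundant in every mouse, with a summed level of 151207 to 191811 CPM, as the label of EDL states. Of the epidermal markers, Krt5, Krt14 and Lor were at 0 counts in all 6 mice, and Krt10, the only one tested, was at 1.14 to 2.10 CPM (log2 fold change -0.28, adjusted p = 0.584). Control mouse 2 stood apart from the other mice: the chi-square of its counts per degree of freedom was 25.4 and 26.2 against the other control mice, which differed from each other by 10.2. Its summed level of 13 connective tissue genes was 11922 CPM, against 24202 and 28229 CPM in the other control mice. The comparison of the markers is therefore given with and without control mouse 2. The labels do not say how the mice were related, and the 6 muscles were taken as independent. The p-values of edgeR set the difference between the groups against the spread between muscles within each group.

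The adipocyte markers had a higher mean in the mAktDKO mice than in the control mice for all 7 genes, by 1.27-fold for Fabp4 and by 1.78-fold to 2.35-fold for the other 6. In mAktDKO mice 1 and 2 each of the 7 genes was above every control mouse. In mAktDKO mouse 3 the level of 6 of the 7 genes lay within the range of the control mice. All 7 log2 fold changes were positive, as were 52.5% of those of all tested genes. With an adjusted p under 0.01 as the call, 0 of the 7 genes was called by the quasi-likelihood test of edgeR (Benjamini-Hochberg), against 0.0233% of all tested genes. At 0.05 the count was also 0, against 1.18% of all tested genes in either direction and 0.264% in the higher direction. DESeq2, which gave no adjusted p for Lep and Retn, called 0 of the 7 at 0.01, against 3.55% of the genes it gave an adjusted p. At 0.05 it called Fabp4 alone, against 2.68% called higher. Without adjustment, 6 of the 7 had a p under 0.05, as had 24.5% of all tested genes in either direction and 11.4% in the higher direction. This count was 1 without mAktDKO mouse 1, without mAktDKO mouse 2 or without control mouse 3, 2 without control mouse 2, and 7 without mAktDKO mouse 3 or without control mouse 4. In RNA of a whole muscle, more adipocytes and more of these RNAs per adipocyte cannot be told apart.

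**Figure D1:**
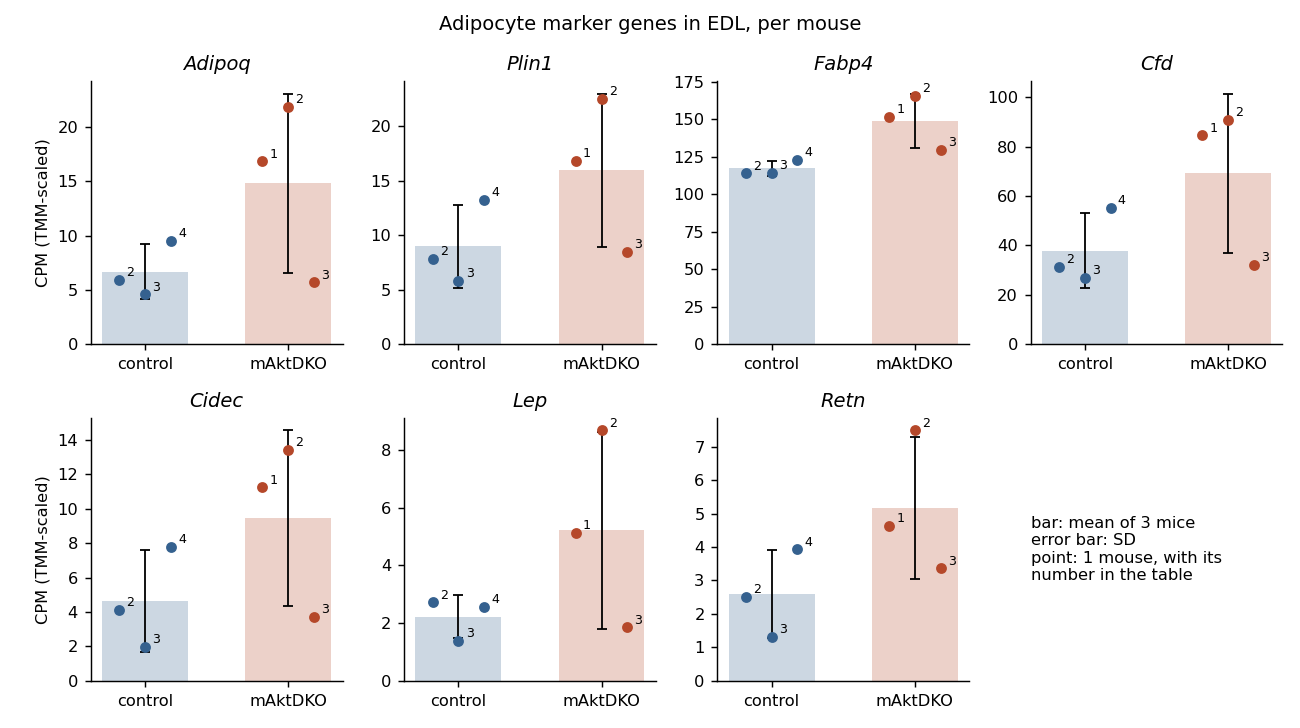
Level of each adipocyte marker in CPM (y axis, from 0, with its own scale in each panel) in 3 control and 3 mAktDKO mice. Bars are means of 3 mice, error bars are SD, and each point is 1 mouse with its number in the table. In each panel mAktDKO mice 1 and 2 lie above every control mouse, and only for Fabp4 does mAktDKO mouse 3 as well.

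Among the secreted proteins, Adipoq had 16.9, 21.9 and 5.69 CPM in mAktDKO mice 1, 2 and 3, and 5.94, 4.60 and 9.53 CPM in control mice 2, 3 and 4. The third mAktDKO value lay between those of the control mice, so the groups overlapped. The means were 14.8 ± 8.28 CPM (SD, n = 3) and 6.69 ± 2.55 CPM (SD, n = 3), and the log2 fold change 1.16 (SE 0.44, adjusted p = 0.154 by edgeR).

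Lep, the gene of the satiety hormone leptin, stood at 5.14, 8.69 and 1.85 CPM in mAktDKO mice 1 to 3 against 2.73, 1.39 and 2.57 CPM in control mice 2 to 4. Its log2 fold change of 1.24 was the largest of the 7 and had a SE of 0.49 (edgeR, adjusted p = 0.170). These levels rest on few reads, from 19 in control mouse 3 to 145 in mAktDKO mouse 2, and the exact 95% Poisson intervals, which cover counting error only, were 11.4 to 29.7 and 122 to 171 reads. The highest and lowest mouse thus differed by more than counting error, whereas the intervals of mAktDKO mouse 3 (17.8 to 39.3 reads) and control mouse 2 (27.7 to 53.3 reads) overlapped.

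Retn stood at 4.63, 7.49 and 3.36 CPM in mAktDKO mice 1 to 3 against 2.52, 1.31 and 3.93 CPM in control mice 2 to 4. Control mouse 4 was higher than mAktDKO mouse 3. The log2 fold change was 1.00 (SE 0.39, adjusted p = 0.166 by edgeR).

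Cfd, the most abundant of the 4 secreted markers, stood at 84.6, 90.9 and 32.1 CPM in mAktDKO mice 1 to 3 against 31.4, 26.8 and 55.2 CPM in control mice 2 to 4. Here too mAktDKO mouse 3 was close to control mice 2 and 3, and control mouse 4 lay between these and mAktDKO mice 1 and 2. The means were 69.2 ± 32.3 CPM (SD, n = 3) and 37.8 ± 15.2 CPM (SD, n = 3), and the log2 fold change was 0.88 (SE 0.38, adjusted p = 0.195 by edgeR).

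Of the lipid droplet proteins, Plin1 stood at 16.8, 22.5 and 8.50 CPM in mAktDKO mice 1 to 3 against 7.83, 5.84 and 13.2 CPM in control mice 2 to 4. The log2 fold change was 0.84 (SE 0.37, adjusted p = 0.198 by edgeR). Cidec stood at 11.2, 13.4 and 3.70 CPM in mAktDKO mice 1 to 3 against 4.12, 1.97 and 7.79 CPM in control mice 2 to 4. It spanned the widest range of the 7, with a 6.81-fold difference between the highest and the lowest mouse, and its log2 fold change was 1.04 (SE 0.51, adjusted p = 0.242 by edgeR). For both genes control mouse 4 was above mAktDKO mouse 3.

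Fabp4 differed from the other markers in level and in spread. It stood at 151, 166 and 130 CPM in mAktDKO mice 1 to 3 against 114, 114 and 123 CPM in control mice 2 to 4, and it was the only one of the 7 whose groups did not overlap. Among all tested genes, 14.6% had groups that did not overlap with the mAktDKO mice higher. Its log2 fold change was 0.35 (SE 0.10, adjusted p = 0.0941 by edgeR), the smallest change and the smallest adjusted p of the 7. In a two-sided exact permutation test of CPM over the 6 mice p was 0.1 for Fabp4, the smallest value that 3 mice against 3 allow. For the other 6 genes the exact p was 0.2 or 0.3.

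Per kilobase of the longest annotated coding transcript, the mean level in the control mice was 131 CPM per kb for Fabp4 and 41.0 CPM per kb for Cfd. It was 5.18 for Adipoq, 3.18 for Plin1, 2.69 for Cidec, 2.27 for Retn and 0.684 for Lep on the same scale. Plin1, Cidec and Retn differed from their neighbours among these 3 by less than the SD between control mice, which was 1.36, 1.71 and 1.15 CPM per kb, and Adipoq (SD 1.97) lay slightly more than its SD above Plin1. In the mAktDKO mice the means followed the same order, from 166 CPM per kb for Fabp4 to 1.60 for Lep.

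The 6 markers other than Fabp4 moved together from mouse to mouse. All 7 genes were highest in mAktDKO mouse 2, and 6 were lowest in control mouse 3. Control mouse 4 was the highest control mouse for 6 of the 7. The pattern of mAktDKO mice 1 and 2 above the control mice with mAktDKO mouse 3 inside the control range was chosen after the values were seen. It held for 6 of the 7 genes and for 6.52% of all tested genes. After each gene was centred on its own mean of log2 CPM over the 6 mice, the mean of the 7 genes was 0.66 and 1.04 in mAktDKO mice 1 and 2 and -0.42 in mAktDKO mouse 3. It was -0.42, -0.97 and 0.12 in control mice 2, 3 and 4. In that measure mAktDKO mouse 3 and control mouse 2 were at the same level.

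**Figure D2:**
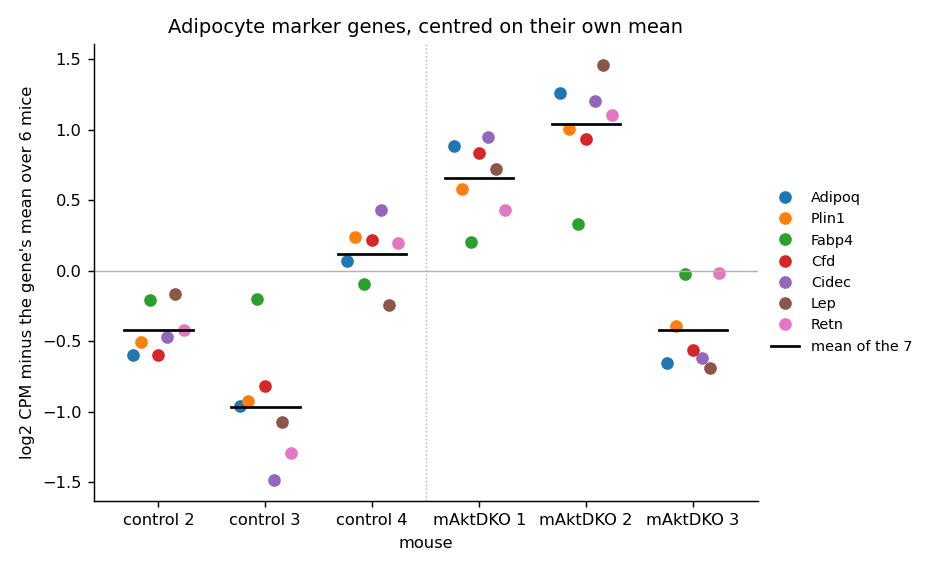
Log2 CPM of each adipocyte marker minus its mean over the 6 mice (y axis), by mouse (x axis). Points are genes and black lines the mean of the 7, which runs from -0.97 in control mouse 3 to 1.04 in mAktDKO mouse 2. Fabp4 spans the narrowest range, from -0.21 to 0.33.

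The composition of the signal varied less than its amount. The 6 genes without Fabp4 summed to 139, 165 and 55.2 CPM in mAktDKO mice 1, 2 and 3 and to 54.5, 41.9 and 92.2 CPM in control mice 2, 3 and 4. Cfd made up between 55.1% and 64% of this sum in every mouse, Plin1 between 12.1% and 15.4% and Adipoq between 10.3% and 13.3%. The less abundant members varied more, with 4.70% to 8.44% for Cidec, 3.13% to 6.09% for Retn and 2.79% to 5.27% for Lep. Within the mAktDKO group, the SD of log2 CPM was between 0.57 and 1.09 for these 6 genes, larger than in at least 96.6% of tested genes, and the median of all tested genes was 0.13. For Fabp4 it was 0.18. Within the control group the SD of the 6 genes was between 0.50 and 0.96, against a median of 0.17 over all tested genes.

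Without control mouse 2, the fit covered 13138 genes and again called 0 of the 7 at an adjusted p of 0.01 or 0.05, against 0.0609% and 1.1% of all tested genes (0.312% higher at 0.05). The log2 fold changes were 1.08 for Adipoq (SE 0.49, adjusted p = 0.268 by edgeR), 0.75 for Plin1 (0.40, adjusted p = 0.339) and 0.33 for Fabp4 (0.11, adjusted p = 0.148). They were 0.76 for Cfd (0.41, adjusted p = 0.346), 0.97 for Cidec (0.57, adjusted p = 0.381), 1.41 for Lep (0.57, adjusted p = 0.218) and 0.99 for Retn (0.44, adjusted p = 0.265). None changed direction, and each moved by less than its standard error. The values moved further without other mice. Without mAktDKO mouse 2 the log2 fold change was 0.76 for Adipoq, 0.50 for Plin1, 0.65 for Lep and 0.63 for Retn, and without mAktDKO mouse 3 it was 1.52, 1.12, 1.61 and 1.21. Without control mouse 4 Cidec reached 1.63, and without control mouse 3 it was 0.68. No fit that left out 1 mouse gave any of the 7 genes an adjusted p under 0.0823.

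**Figure D3:**
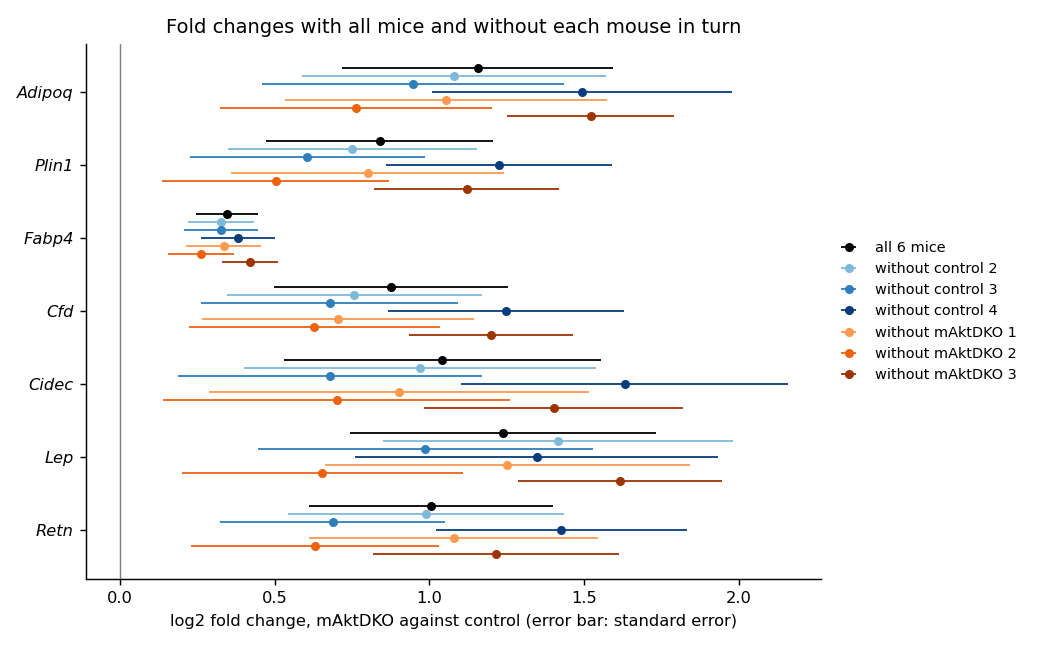
Log2 fold change of each adipocyte marker, mAktDKO against control (x axis), with all 6 mice and without each mouse in turn. Error bars are standard errors from edgeR. All values lie above 0, from 0.26 for Fabp4 without mAktDKO mouse 2 to 1.63 for Cidec without control mouse 4.

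Further genes of fat storage were grouped by role, and several of these genes are also active in muscle fibres. The 7 lists of transcription factors, droplet proteins, lipolysis, uptake, lipogenesis, secreted proteins and other adipocyte-enriched genes held 72 genes other than the 7 markers, of which 67 were tested. The lists of receptors and of brown fat are not in this count. Of the 67, 42 had a positive and 25 a negative log2 fold change, with a median of 0.20, against 0.02 for all tested genes. At an adjusted p under 0.05, 0 were higher and 2 lower, and 0 were called at 0.01 (edgeR). Of all tested genes, 0.915% were lower at 0.05. For each list below, called means an adjusted p under 0.05 by edgeR with all 6 mice. DESeq2, which was run without the filter, called more at 0.01. It called higher 1 gene each of lipolysis, of uptake and of the other adipocyte-enriched genes. It called lower 3 droplet proteins, 1 transcription factor and 1 gene of the brown fat list. Of the 9616 genes to which it gave an adjusted p, it called 90 higher and 251 lower. Without adjustment, edgeR gave a p under 0.05 to 2 of the other adipocyte-enriched genes, 4 of lipolysis, 4 of uptake and 2 of the receptors, all higher. The same held for 5 higher and 2 lower of lipogenesis, 5 higher and 1 lower of the secreted proteins and 2 lower of brown fat. Among droplet proteins it held for 1 higher and 4 lower, and among transcription factors for 2 higher and 1 lower. Of all 12892 tested genes, 1471 were higher and 1693 lower at this unadjusted p.

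Among 12 other adipocyte-enriched genes found in the table, 9 of the 11 tested had a positive log2 fold change, with a median of 0.54, and 0 were called. Without control mouse 3, 7 of the 11 were positive and the median was 0.33. Aoc3, which encodes an amine oxidase of the adipocyte surface, stood at 42.6, 58.9 and 29.3 CPM in mAktDKO mice 1 to 3 against 22.4, 23.8 and 28.4 CPM in control mice 2 to 4 (log2 fold change 0.81, SE 0.22, adjusted p = 0.0833 by edgeR). The log2 fold change of Aoc3 was 0.54 without mAktDKO mouse 2. Acvr1c, the receptor ALK7, had 6.28, 12.6 and 2.67 CPM against 3.29, 2.19 and 3.55 CPM (log2 fold change 1.27, adjusted p = 0.155, and 0.58 without mAktDKO mouse 2). Lgals12, which encodes galectin-12 of the lipid droplet, had 3.11, 3.23 and 0.891 CPM against 1.33, 0.802 and 1.44 CPM (log2 fold change 1.03, adjusted p = 0.213). For the last pair, as for the adipocyte markers, mAktDKO mouse 3 lay among the control mice. Of the 11 adipokines and other secreted proteins, which include 4 of the markers, 9 were positive and 2 negative, with a median of 0.51 and 0 called. Besides the markers, Itih5 was at 0.51 (adjusted p = 0.147, and 0.29 without control mouse 2) and Agt, angiotensinogen, at -0.41 (adjusted p = 0.108 by edgeR).

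Of the 15 genes of fatty acid and triglyceride synthesis, 10 were positive and 5 negative, with a median of 0.43 and 0 called. Without control mouse 4, 3 of the 15 were called higher at 0.05, in a fit that called 1.11% of all tested genes higher, against 0.264% with all mice. Scd1, a fatty acid desaturase, stood at 622, 1398 and 506 CPM in mAktDKO mice 1 to 3 against 285, 196 and 568 CPM in control mice 2 to 4 (log2 fold change 1.27, SE 0.44, adjusted p = 0.136 by edgeR). Its highest value was again in mAktDKO mouse 2, without which the log2 fold change was 0.69, and control mouse 4 again exceeded mAktDKO mouse 3. Elovl6, a fatty acid elongase, was at 0.58 on the same log2 scale (adjusted p = 0.141, and 0.36 without mAktDKO mouse 2). Me1, the malic enzyme that supplies NADPH, was at -0.44 (adjusted p = 0.104). Among the 6 tested genes of lipolysis 5 were positive, with a median of 0.34 and 0 called. Hcar1, the lactate receptor by which adipocytes restrain lipolysis, was under the filter, at 1.59, 3.47 and 0.343 CPM in the mAktDKO mice against 0.280, 0.219 and 0.454 CPM, and Adrb3 was between 0.146 and 1.01 CPM. Pde3b, a phosphodiesterase through which insulin restrains lipolysis, was at 0.69 (adjusted p = 0.0520), Aqp7, the glycerol channel, at 0.36 (adjusted p = 0.0895) and Pnpla2, adipose triglyceride lipase, at 0.32 (adjusted p = 0.178). Among 10 genes of fatty acid uptake and binding 7 were positive, with a median of 0.09 (0.19 without control mouse 2) and 0 called. Lpl, lipoprotein lipase, stood at 885, 999 and 881 CPM in mAktDKO mice 1 to 3 against 722, 615 and 556 CPM in control mice 2 to 4, a log2 fold change of 0.55 (SE 0.11, adjusted p = 0.0540 by edgeR). Its groups did not overlap, and mAktDKO mouse 3 was as high as mAktDKO mouse 1, unlike for the adipocyte markers. Without control mouse 2 the change of Lpl was 0.65 (adjusted p = 0.0227 by edgeR), and without any other single mouse no gene of this list was called, with a smallest adjusted p between 0.0703 and 0.245. Fabp5, a relative of Fabp4, was at 0.58 (adjusted p = 0.0761).

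The droplet proteins fell into opposite directions. Of 10 tested, 3 were positive, among them Plin1 and Cidec, and 7 negative, with a median of -0.21. Fitm2, a protein of droplet budding, was lower past an adjusted p of 0.05, with 52.8, 46.0 and 44.0 CPM in the mAktDKO mice against 78.0, 69.0 and 63.8 CPM in the control mice (log2 fold change -0.56, SE 0.10, adjusted p = 0.0474 by edgeR). This call was lost without any one of the mAktDKO mice and without control mouse 2 or 3. Plin5, the perilipin of oxidative tissues that ties droplets to mitochondria, had 7.61, 5.57 and 3.70 CPM against 18.1, 13.7 and 10.1 CPM. Its log2 fold change was -1.31 (SE 0.27, adjusted p = 0.0539 by edgeR). Plin4, also abundant in muscle, was at -0.53 (adjusted p = 0.0539). For all 3 genes the groups did not overlap and mAktDKO mouse 3 was low with the others, whereas Plin1 and Cidec had mAktDKO mouse 3 inside the control range. Among all tested genes, 16.6% had groups that did not overlap with the mAktDKO mice lower.

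Of 11 transcription factors of the adipocyte 6 were positive and 5 negative, with a median of 0.05. Cebpb was lower past an adjusted p of 0.05, with 58.4, 48.3 and 57.3 CPM in the mAktDKO mice against 84.2, 78.9 and 93.3 CPM in the control mice (log2 fold change -0.64, SE 0.10, adjusted p = 0.0394 by edgeR). This call was lost without any one of the mAktDKO mice and without control mouse 3. Ebf1 was at 0.43 (adjusted p = 0.122) and Ebf2 at 0.31 (adjusted p = 0.186, and 0.19 without control mouse 2). Pparg itself had 4.95, 7.97 and 3.84 CPM against 3.78, 4.45 and 5.22 CPM, and Cebpa 17.3, 20.8 and 9.53 CPM against 10.8, 10.8 and 14.0 CPM, both highest in mAktDKO mouse 2. Of 8 genes of adipokine reception, complement and the insulin receptor, 6 were positive, with a median of 0.17 and 0 called. They were led by Cfb, complement factor B, at 0.69 (adjusted p = 0.0691), and Lepr, the leptin receptor, at 0.56 (adjusted p = 0.101). Without control mouse 3, 5 of these 8 were positive and the median was 0.10. Cap1, which binds resistin, was at 0.28 (adjusted p = 0.210 by edgeR, and 0.16 without control mouse 2).

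**Figure D4:**
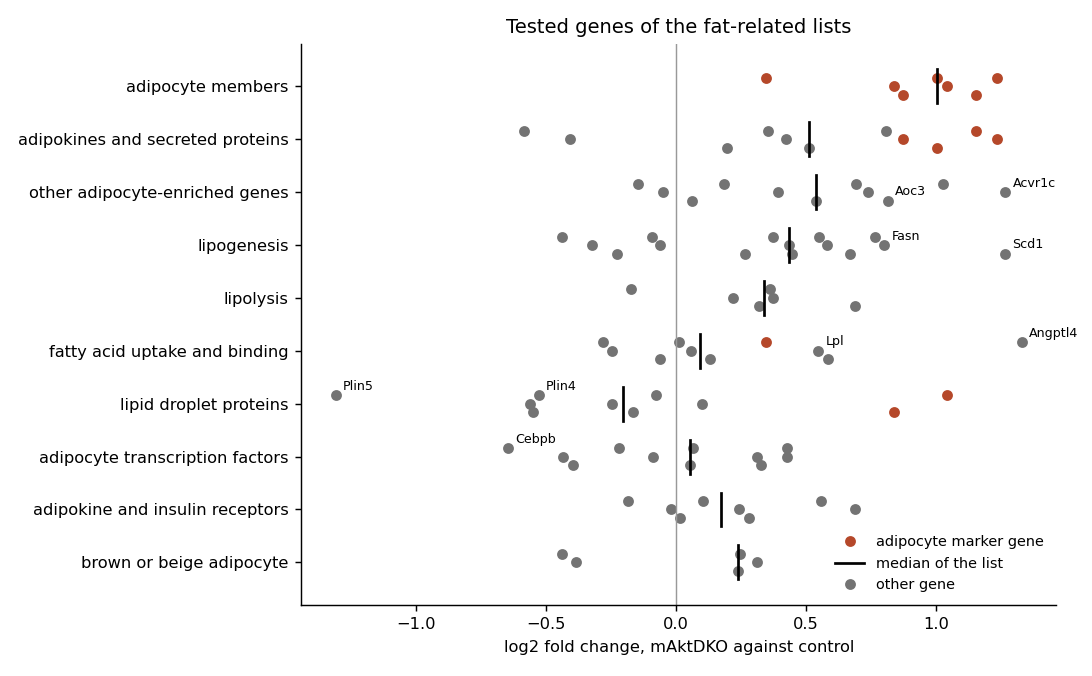
Log2 fold change, mAktDKO against control (x axis), of the tested genes in 10 lists, with the 7 adipocyte markers in red, other genes in grey and the median of each list as a black line. A gene in several lists is drawn in each. Adipocyte markers lie between 0.35 and 1.24, and Plin5 is at -1.31.

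The defining marker of brown and beige fat was not detected. Ucp1, which encodes the uncoupling protein, had 0 counts in all 6 mice, which allows a level of up to 0.180 to 0.227 CPM. Elovl3 had 0 counts in 4 mice, and Cidea was between 0.240 and 0.824 CPM. Of the 8 genes, 5 were tested, 3 of them positive and 2 negative, with a median of 0.24, and 0 were called. The median was 0.09 without mAktDKO mouse 3. Over the 7 genes that DESeq2 fitted the median was -0.063. Cox8b, at -0.44 (adjusted p = 0.0506), and Cox7a1, at -0.39 (adjusted p = 0.0791), are also subunits of cytochrome oxidase in muscle. Dio2, a deiodinase, was at 0.31 (adjusted p = 0.241 by edgeR, and 0.19 without mAktDKO mouse 2).

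Markers of other cells of the muscle were measured beside the adipocyte markers, with calls as above. DESeq2 called 2 tendon, 2 connective tissue and 1 blood gene higher and 6 fast fibre genes lower at 0.01. Of the 9616 genes to which it gave an adjusted p, it called 90 higher and 251 lower. Without adjustment, edgeR gave a p under 0.05 to 2 endothelial, 3 macrophage, 3 tendon and 2 nerve genes, all higher. Also under 0.05 were 6 connective tissue and 2 blood genes higher, 9 fast fibre genes lower, and 2 slow fibre genes higher and 1 lower. Of all 12892 tested genes, 1471 were higher and 1693 lower at this unadjusted p. Summed over 8 genes, the slow fibre markers stood at 1164, 1355 and 713 CPM in mAktDKO mice 1 to 3 against 691, 933 and 648 CPM in control mice 2 to 4, with mAktDKO mice 1 and 2 above every control mouse and mAktDKO mouse 3 among them. Myh7, the slow myosin, had 525, 637 and 269 CPM against 168, 368 and 233 CPM (log2 fold change 0.90, SE 0.34, adjusted p = 0.152 by edgeR). Tnni1 was at 0.83 (adjusted p = 0.141) and Casq2 at -0.39 (adjusted p = 0.118). Of the 8 slow fibre genes 6 were positive and 0 called. Control mouse 3, the lowest for 6 of the adipocyte markers, was the highest control mouse for the slow fibre sum. The 5 blood genes summed to 320, 253 and 150 CPM against 168, 160 and 114 CPM, also highest in mAktDKO mice 1 and 2. All 5 were positive, and Hbb-bs, at 0 counts in the control mice and 9.23 to 23.5 CPM in the mAktDKO mice, was called at 0.05 (adjusted p = 0.0180 by edgeR). The call of Hbb-bs was lost without mAktDKO mouse 2 or 3. Without mAktDKO mouse 1 or without control mouse 2, 4 of the 5 were positive. Reads of the near-identical globin copies can be split between them by the counting. Hbb-bt was at 0.47 (adjusted p = 0.318, and 0.14 without mAktDKO mouse 1) and Hba-a2 at 1.07 (adjusted p = 0.137). Without control mouse 2 Hba-a2 was at 1.72 and was called (adjusted p = 0.0133 by edgeR). The part of slow fibres and of blood in the levels of the adipocyte markers was not tested.

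The 13 genes of fibro-adipogenic progenitors and connective tissue summed to 33130, 28822 and 34643 CPM in the mAktDKO mice against 11922, 24202 and 28229 CPM in the control mice. Of these genes 12 were positive, with a median of 0.44. Dpp4, a marker of the progenitors, was higher past an adjusted p of 0.05, at 0.90 (SE 0.16, adjusted p = 0.0474 by edgeR). This call was lost without any one of the mAktDKO mice and without control mouse 3. Dcn, decorin, was at 0.57 (adjusted p = 0.0539) and Mfap5 at 0.51 (adjusted p = 0.127, and 0.31 without control mouse 2). Here mAktDKO mouse 3 had the highest sum, unlike for the adipocyte markers. Most of this sum came from the collagens Col1a1 and Col1a2, at 18884 and 11897 CPM in mAktDKO mouse 3. That mouse was the highest of the mAktDKO mice for Col1a1, Col1a2 and Dcn. It was the lowest of them for Pdgfra, Cd34, Mfap5, Lum, Pi16, Clec3b and Col3a1, and lay between them for Dpp4, Gsn and Ly6a. Without control mouse 2, 10 of the 13 were positive and the median was 0.22. The 6 tendon genes were all positive, with a median of 0.40 and 0 called, and their sum was also highest in mAktDKO mouse 3, at 1775 CPM. Tnmd, tenomodulin, was at 0.72 (adjusted p = 0.0772), Fmod at 0.59 (adjusted p = 0.0909) and Mkx at 0.62 (adjusted p = 0.130).

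Endothelial markers, relevant for Fabp4, summed over 17 genes to 1125, 1042 and 1016 CPM in the mAktDKO mice against 921, 1074 and 910 CPM in the control mice. Of these 10 were positive and 7 negative, with a median of 0.04 and 0 called, led by Cdh5, VE-cadherin, at 0.32 (adjusted p = 0.173), Emcn at 0.46 (adjusted p = 0.174) and Eng at 0.19 (adjusted p = 0.215 by edgeR). Pecam1 was at 0.29 (adjusted p = 0.228), and Fabp4 at 0.35. Without control mouse 2 Emcn was at 0.29, Pecam1 at 0.18 and Fabp4 at 0.33. Of 11 tested macrophage and leukocyte genes 11 were positive, with a median of 0.41 and 0 called, and their sum was 196, 180 and 160 CPM against 108, 168 and 158 CPM. Without control mouse 2, 11 of 12 were positive and the median was 0.19, with Ptprc at 0.42 and Adgre1 at 0.31. Ptprc (CD45) was at 0.64 (adjusted p = 0.125), Cd68 at 0.93 (adjusted p = 0.141) and Adgre1 (F4/80) at 0.51 (adjusted p = 0.149). Of 8 nerve genes 7 were positive, with a median of 0.20 and 0 called. Among them were the myelin genes Pmp22 at 0.35 (adjusted p = 0.169, and 0.20 without control mouse 2) and Mbp at 0.30 (adjusted p = 0.180). Without mAktDKO mouse 1, 5 of the 8 nerve genes were positive, the median was 0.13 and Mbp was at 0.19. All 16 genes of the fast fibre list had a negative log2 fold change, with a median of -0.30. Their summed level was 151207 to 168723 CPM in the mAktDKO mice against 178713 to 191811 CPM in the control mice. The changes differed in size. Myh4, the most abundant gene of the list, was at -0.02 (adjusted p = 0.944 by edgeR), and its groups overlapped. Actn3 was at -0.11 (adjusted p = 0.496 by edgeR). Mb, which encodes the oxygen-binding protein myoglobin, most abundant in oxidative fibres, was the only one of the list called at 0.05, at -1.36 (adjusted p = 0.0206 by edgeR), Myh1 was at -0.51 (adjusted p = 0.0539) and Tnni2 at -0.59 (adjusted p = 0.0557). Without mAktDKO mouse 2 or without control mouse 3, 15 of the 16 were negative. The call of Mb was lost without any one of the mAktDKO mice. The summed fast fibre level of the mAktDKO mice was 0.856 times that of the control mice, and that of the 6 adipocyte markers without Fabp4 was 1.90 times. The part of endothelial cells, macrophages and fast fibres in the levels of the adipocyte markers was not tested.

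**Figure D5:**
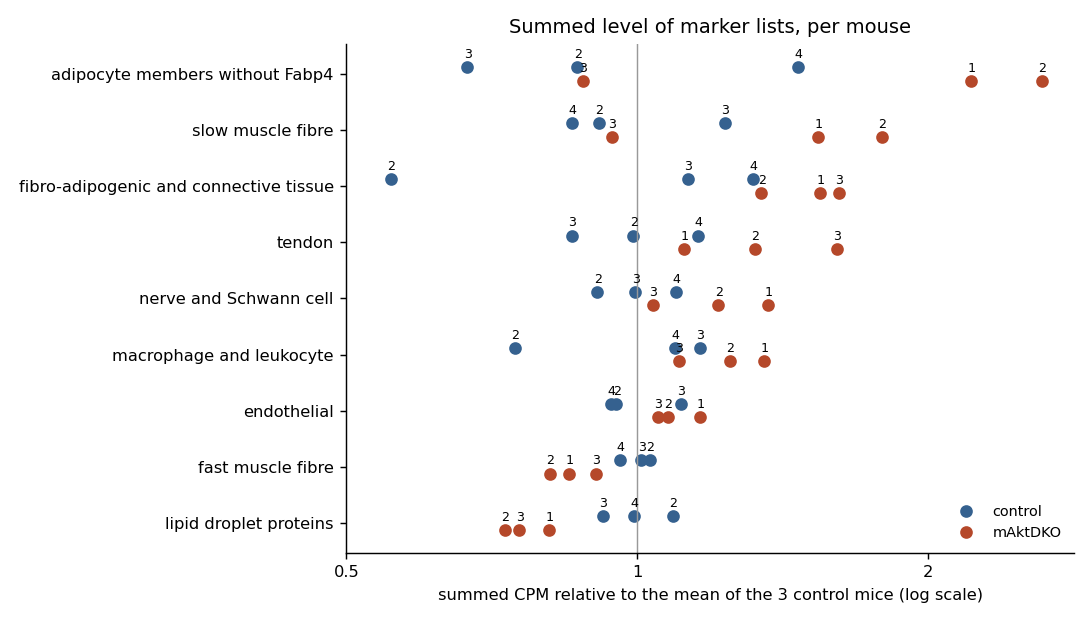
Summed CPM of marker lists in each mouse relative to the mean of the 3 control mice (x axis, log scale), with control mice in blue and mAktDKO mice in red, each labelled by its number. The adipocyte markers without Fabp4 run from 0.667 in control mouse 3 to 2.62 in mAktDKO mouse 2. In the fast fibre and lipid droplet lists the mAktDKO mice are all below the control mice, and in the connective tissue list all above them. Plin4 is the largest term of the lipid droplet sum, which also holds Plin1 and Cidec.

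The 10 tested genes with the profile most like that of the adipocyte markers were found by the root mean square distance between centred log2 CPM over the 6 mice. They were Arxes2, Gpr63, Lgals12, Dram1, Tmem45b, Klb, Tshr, Acvr1c, Hp and Pygl, with distances of 0.147 to 0.274. The distance was 0.0737 for Plin1, the marker nearest to the mean, 0.507 for Fabp4, the farthest, and 0.704 for the median tested gene. Arxes2 stood at 2.09, 2.52 and 1.10 CPM in mAktDKO mice 1 to 3 against 0.769, 0.584 and 1.51 CPM in control mice 2 to 4. Hp, haptoglobin, was the most abundant of the 10, with 29.0, 30.0 and 9.12 CPM against 12.9, 10.4 and 22.9 CPM. Klb, the co-receptor beta-Klotho, had 2.03, 2.28 and 0.480 CPM against 0.769, 0.365 and 0.907 CPM. Lgals12 and Acvr1c were also among the adipocyte-enriched genes listed above. None of the 10 was called at an adjusted p under 0.05, against 1.18% of all tested genes, and the smallest adjusted p was 0.131, for Tshr (edgeR). The genes were picked by a profile in which mAktDKO mouse 3 lies among the control mice. Their lack of calls is thus no separate result.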

How the data were processed

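The authors sequenced paired-end libraries depleted of ribosomal RNA, 1 per muscle, mapped the reads to mm10 with STAR (2.6.1b in the submitters' processing notes, another release in the methods) and used RSEM 1.3.1 to estimate counts per gene. What they deposited is expected counts without any scaling, over 24411 symbols, of which 3.36% to 4.09% per mouse are not whole numbers. The annotation used for counting is not given in the sources used here.

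The counts were rounded, filtered with filterByExpr (minimum count 10), scaled by TMM and tested over 12892 genes with the quasi-likelihood test of edgeR 4.0.16 in R 4.3.3. Adjusted p is after Benjamini-Hochberg, the threshold was 0.01, and the standard error is the log2 fold change divided by the square root of F. CPM uses TMM-scaled totals of the tested genes, and log2 CPM a prior count of 2. Intervals and the floor of 3 counts cover counting error only. Columns of mAktDKO mice match the labels by number. Those of control mice run from 2 to 4, against labels from 1 to 3, and were used as a group only. In counts simulated for this comparison with 200 genes changed 2-fold, edgeR recovered 142 (71%) with 1 false call. This share is over genes in general and does not say how often such a change in the markers would be called. Within the mAktDKO group the SD of log2 CPM was 0.57 to 1.09 for the markers other than Fabp4, against a median of 0.13 over tested genes.

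The members and lists were chosen with earlier results of these data known. Named are the 7 markers, Akt1, Akt2, the 3 genes with the smallest p in each list and the 10 genes of nearest profile, and the lists share some genes. A gene that this rule names is not reported here. Other genes of the lists were named after their values were seen. Trarg1, a listed gene, was not found in the table under that symbol. Sequences are from RefSeq. Alternatives were other scalings, DESeq2 1.42.0, limma 3.58.1 (voom with sample weights), other filters, a covariate and leaving out each mouse.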

Additional observations from a re-analysis of the deposited data

How the results depend on the processing

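All 7 adipocyte markers kept a positive log2 fold change and stayed above an adjusted p of 0.01 with other scalings (library totals, DESeq2 size factors, upper quartile), DESeq2, robust dispersion, voom with sample weights, no filter, at least 10 counts in every mouse, and without each mouse. DESeq2 gave no adjusted p for Lep and Retn. The smallest adjusted p of any marker was 0.0394, for Fabp4 with DESeq2 (range of Fabp4 without one mouse 0.0984 to 0.331). Their median log2 fold change of 1.00 was from 0.63 to 1.35 without one mouse. Library totals moved the median of all genes from 0.02 to 0.16.

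The number of genes called over all 12892 was 3. It was 341 with DESeq2, 18 with robust dispersion, 17 with voom, 32 with no filter and 152 at an adjusted p under 0.05. With the mean of the markers as a covariate it was 0, with 1374 genes at an unadjusted p under 0.05. Without one mouse it was from 0 to 8, with 8 without control mouse 2 and 0 without any one mAktDKO mouse. The cause was not tested.

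No paired analysis was possible because the numbering of the control mice differs between table and labels. The calls at 0.05 of Cebpb, Fitm2, Dpp4 and Mb were each lost without any one of the mAktDKO mice, and that of Hbb-bs without mAktDKO mouse 2 or 3. Cebpb and Dpp4 were also lost without control mouse 3, and Fitm2 without control mouse 2 or 3. Without control mouse 4 more genes were called at 0.05, 146 higher and 242 lower against 34 and 118 with all mice, and among them were, higher, 3 genes of lipogenesis, 1 of lipolysis, 2 of tendon, 2 of connective tissue and 1 of blood and, lower, 2 of lipid droplets, 2 of fast fibres, 1 transcription factor and 1 of brown fat.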
